A study of Mus musculus with 12 samples.

Results

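ABC transporters are membrane proteins that use ATP to move bile salts, lipids, drugs and peptides across membranes. The genes described here are all those on the array whose annotated symbol runs from Abca to Abcg followed by a number, on rows that name 1 gene. They were 48 of 19937 genes, on 49 rows, since Abcb5 had more than 1. Of these, 8 were placed by known function among exporters of the canalicular membrane, 5 among basolateral exporters and 5 among transporters of sterols and phospholipids, and 30 belong to other groups. RNA from C57Bl6 mouse liver cells and liver organoids was measured on 12 Affymetrix MoGene 1.0 ST arrays, with 3 libraries in each of 4 groups. The first group held YFP-positive cells sorted by FACS from livers in which Yap had not been induced, titled hepatocytes. The second held wild-type organoids, grown for 2 weeks. The other groups were organoids also grown for 2 weeks, after Yap had been on for 3 weeks in the animal. Without doxycycline in culture Yap was then off (Yap-off organoids), and with doxycycline it stayed on (Yap-on organoids). The sources used here do not give the animals' age and sex, the promoter of the Yap transgene or the number of animals per group. Each p-value therefore reflects the scatter of these libraries alone, and that scatter may be technical.

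Hepatocytes secrete bile across the apical membrane that lines the canaliculus. Abcb11 is the bile salt export pump, Abcc2 exports bilirubin glucuronides and glutathione conjugates, Abcb4 moves phosphatidylcholine into bile, and the Abcg5 and Abcg8 proteins form a dimer that exports cholesterol and plant sterols. On the basolateral side Abcc3 and Abcc4 can return bile salts and conjugates to the blood. Abca1 loads cholesterol and phospholipid onto apolipoprotein A-I, and Abcg1 onto high-density lipoprotein.

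The bases before the start sites of Abcc2 and Abcb11, the canalicular markers, and those between Abcg5 and Abcg8, neighbours that both fell, are shown 5′ to 3′ from RefSeq, build GRCm38.p6. Abcc2 is on chromosome 19 and its 250 bases lie at chr19:43782058-43782307, plus strand. Abcb11 is on chromosome 2, at chr2:69342617-69342866, minus strand. Abcg5 and Abcg8 run away from each other on chromosome 17, and the 109 bases between their starts lie at chr17:84683012-84683120, printed on the plus strand, which Abcg8 follows. RefSeq gives Abcg8 a further start upstream of these bases. Capitals mark matches, on either strand, to the nuclear receptor site AGGTCA or the TEAD motif GGAATG, the site of the factors through which Yap acts.
Abcc2: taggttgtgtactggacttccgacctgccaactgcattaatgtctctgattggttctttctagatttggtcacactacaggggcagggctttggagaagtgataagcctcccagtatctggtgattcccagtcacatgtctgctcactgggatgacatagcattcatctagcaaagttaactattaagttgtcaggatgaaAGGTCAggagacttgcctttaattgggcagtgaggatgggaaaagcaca
Abcb11: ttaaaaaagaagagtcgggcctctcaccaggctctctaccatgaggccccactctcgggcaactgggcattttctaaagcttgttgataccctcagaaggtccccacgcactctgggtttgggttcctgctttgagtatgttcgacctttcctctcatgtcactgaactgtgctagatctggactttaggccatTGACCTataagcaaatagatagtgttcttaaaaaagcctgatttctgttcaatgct
Abcg5-Abcg8: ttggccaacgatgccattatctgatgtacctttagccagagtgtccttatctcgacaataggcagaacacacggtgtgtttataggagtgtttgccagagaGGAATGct
The table of RefSeq windows held 38 of the 48 genes, in 45 windows. AGGTCA occurred in 14% of all 32851 windows of 250 bases and in 7 of these 45, from 5 ABC genes (Abcc2, Abcb11, Abcb6, Abcc10 and Abcg2). GGAATG occurred in 12.6% of all windows and in 8 of the 45, from 8 ABC genes, among them Abcg5, Abcg8, Abcb1a and Abca3. The match printed between Abcg5 and Abcg8 is counted for both. The HNF1 site GTTAAT occurred in 6.43% of all windows and in 0 of the 38 genes. Exact matches to the FXR inverted repeat and to the LXR direct repeat, both built from AGGTCA and therefore overlapping it, were in 2 and 5 of all windows and in no ABC gene. Both strands were searched, and a match describes letters only.

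The libraries titled hepatocyte and wild-type organoid did not sort by title. The median of 10 macrophage markers was 11.43, 10.46 and 11.09 (log2 intensity) in labelled hepatocyte 2, labelled wild-type organoid 1 and labelled wild-type organoid 3, and from 3.61 to 4.34 in the others of these groups. The median of 7 bile duct markers took the opposite order, from 3.52 to 3.70 in those libraries against 7.90 to 8.18 in the others. Labels were kept in every comparison, and the groups are called labelled hepatocytes and labelled wild-type organoids. Results that rest on them are given also on the 10 arrays that leave out labelled hepatocyte 2 and labelled wild-type organoid 2. These were left out because their profiles differed from the rest of their groups in these same data. Leaving them out narrows the spread by design, so calls on the 10 arrays rest on a choice made from the tested values. Yap1 lay between 7.28 and 7.45 in Yap-on and between 6.88 and 7.35 in Yap-off organoids, so the array did not separate these groups by it. Whether its probes detect the RNA of the induced Yap was not tested. Xist, the RNA of the inactive X chromosome, lay between 3.14 and 3.20 in Yap-on and between 8.49 and 9.20 in Yap-off organoids. Xist may mark the sex of the animals, which is not given. Between these groups the effects of such a difference and of Yap on any gene cannot be told apart. Xist stood at 8.823, 2.995 and 8.999 in labelled hepatocytes 1, 2 and 3. It lay between 3.14 and 3.297 in labelled wild-type organoids, below every Yap-off library. On the 10 arrays Xist also separates labelled hepatocytes from Yap-on and from labelled wild-type organoids. The part of the difference that Xist marks in the comparisons with labelled groups was not tested.

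The first question is how the transporters differed between organoids with Yap kept on and with Yap off in culture. The canalicular exporters Abcc2, Abcb4, Abcb11, Abcg5 and Abcg8 and the sterol exporter Abca1 were lower in Yap-on than in Yap-off organoids, while the basolateral exporters Abcc1 and Abcc5, the P-glycoprotein Abcb1a and the lipid transporter Abca3 were higher. Of the 48 genes 24 passed limma's test at an adjusted p under 0.05 on the 6 arrays of these groups, 9 higher and 15 lower with Yap on. Over all 19937 genes 31.2% passed, 19.1% higher and 12% lower. The share of ABC genes that passed as higher (18.8%) was thus near that of all genes, and the share that passed as lower (31.3%) was above it, a difference that was not tested. At least 2-fold differences were found in 4 of the genes that rose and 11 of those that fell. Values of the groups did not overlap for 32 of the 48 (66.7%) and for 53.5% of all genes. The median difference of the 48 genes was -0.17 and that of all genes -0.08 (log2). When the spread was taken from all 12 arrays, 13 of the 24 calls held, and 11.5% of all genes passed. On the 10 arrays just described 20 passed, beside 29.7% of all genes.

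**Figure D1:**
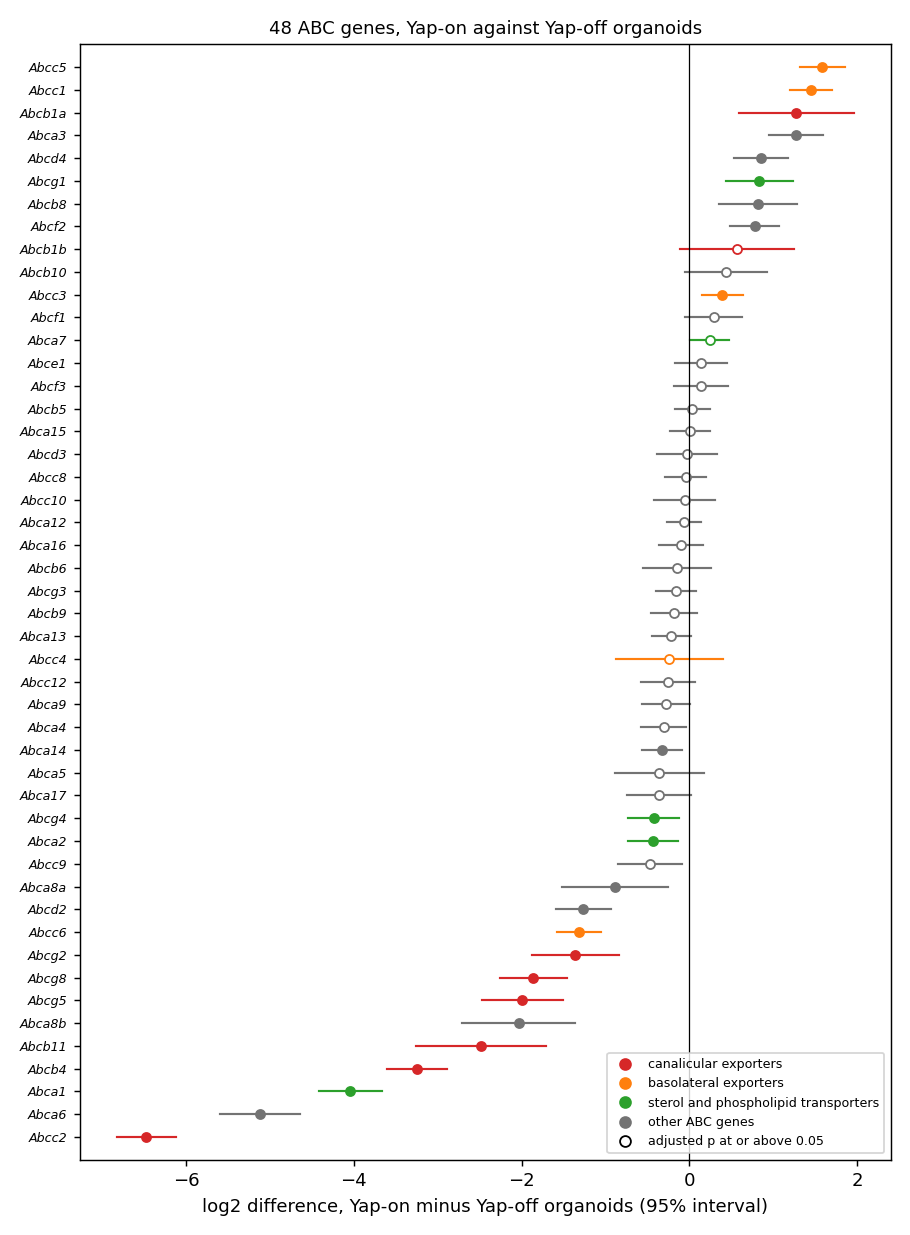
Log2 difference of Yap-on minus Yap-off organoids for each of the 48 ABC genes, with 95% intervals from limma on 6 arrays. Filled points passed at an adjusted p under 0.05, and the canalicular genes Abcc2, Abcb4, Abcb11, Abcg5, Abcg8 and Abcg2 all lie below 0, while Abcb1a lies above it.

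Among the 8 canalicular exporters 6 fell, 1 rose and 1 did not pass, where 12% of all genes fell and 19.1% rose. Their median difference was -1.92. Abcc2 stood at 9.94, 9.49 and 9.72 (log2 intensity) in the Yap-off libraries against 3.40, 3.27 and 3.07 with Yap on. Every Yap-on library lay below the median of its array (4.17). The log2 difference was -6.47 (SE 0.15, adjusted p = 4.8e-07). Since signal over background was not used here, no fold is given for falls to below the array median. Abcb4 was at 6.55, 6.26 and 6.59 in Yap-off and at 3.45, 3.21 and 3.00 in Yap-on libraries. Its groups were far apart, with a difference of -3.25 (SE 0.15, adjusted p = 1.3e-05).

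Abcb11 was more scattered where it was present. It stood at 4.40, 5.27 and 5.80 in the Yap-off libraries against 2.65, 2.61 and 2.76 with Yap on. The lowest Yap-off library was close to its array median (4.16), and the groups still did not overlap (difference -2.48, SE 0.33, adjusted p = 0.0017). The sterol exporters Abcg5 and Abcg8 fell to a like extent. Abcg5 was at 5.42, 4.65 and 5.30 with Yap off and at 3.08, 3.17 and 3.17 with Yap on, a difference of -1.99 (SE 0.20, adjusted p = 0.00054). Abcg8 was at 4.61, 5.10 and 4.51 against 2.75, 2.94 and 2.96, a difference of -1.86 (SE 0.17, adjusted p = 0.00033). Library 2 was the lowest of the Yap-off libraries for Abcg5 and the highest for Abcg8, so the spread within the group was not shared by these neighbours.

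The multidrug exporters of the same membrane did not move as one. Abcg2, the breast cancer resistance protein, which exports urate and drugs, was at 5.89, 5.34 and 5.23 in Yap-off and at 4.19, 3.81 and 4.38 in Yap-on libraries, and it fell by 1.36 (SE 0.22, adjusted p = 0.0041). This call was lost with the spread of all 12 arrays (adjusted p = 0.12). Abcb1a, one of the mouse P-glycoproteins, went the other way, at 6.73, 5.61 and 6.45 against 7.79, 7.32 and 7.51. The groups did not overlap, and Abcb1a rose by 1.28 (SE 0.29, adjusted p = 0.016), a call lost when Yap-on 1 was left out (adjusted p = 0.066) and on all 12 arrays (adjusted p = 0.37). Its paralog Abcb1b was high in both groups, at 7.91, 7.15 and 6.75 with Yap off and at 8.06, 7.65 and 7.81 with Yap on. These overlapped, and the difference of 0.57 (95% interval -0.12 to 1.25, adjusted p = 0.17) did not pass, although it did when Yap-off 1 was left out (0.89, adjusted p = 0.011). Abcb1a, Abcb1b and Abcb4 lie side by side on chromosome 5, and probes for such close paralogs may share signal.

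**Figure D2:**
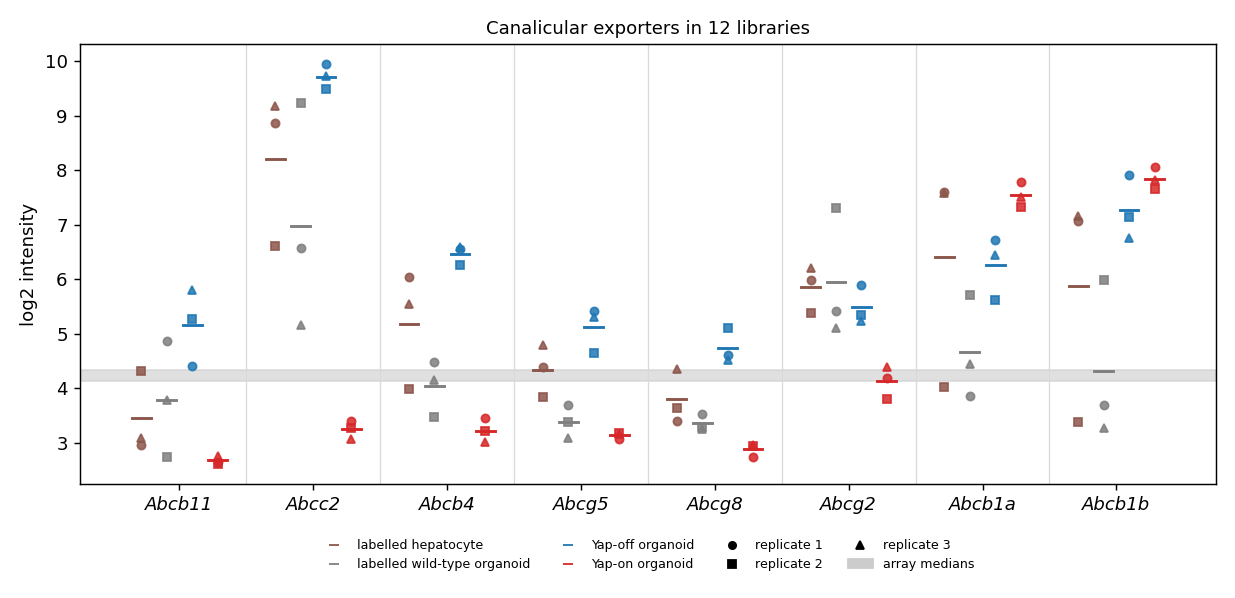
Log2 intensity of the 8 canalicular exporters in all 12 libraries, with marker shapes for replicate numbers, bars for group means and a grey band for the range of array medians. Abcc2 spans 3.07 to 9.94, and all Yap-on libraries lie under the band for Abcb11, Abcc2, Abcb4, Abcg5 and Abcg8.

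Beside these falls, all 10 hepatocyte markers on the fixed list fell and 6 of 7 bile duct markers rose. The hepatocyte list median lay between 11.14 and 11.55 in Yap-off and between 3.14 and 3.27 in Yap-on libraries, and the duct list median between 7.0 and 7.54 against 9.18 and 9.56. The log2 of the summed intensity of the hepatocyte list lay between 14.80 and 15.08 against 11.50 and 11.63. With Yap on 7 of its 10 markers were at or below the array median on all arrays. The means of Ttr, Hnf4a and Apoa1 were still 11.27, 8.54 and 6.59 with Yap on. Of the other marker lists, 4 of 5 lymphocyte and neutrophil markers fell, and 4 of 10 macrophage markers fell and 1 rose. Of 8 stellate and fibroblast markers 3 fell, and 1 of 10 endothelial markers rose. Over all genes 12% fell and 19.1% rose. Many of these markers were dim. Of the 8 stellate and fibroblast markers 4 were at or below the array median on all Yap-off arrays and 7 on all Yap-on arrays. Reln, of that list, was bright with Yap off, at 7.89, 7.62 and 8.02 against 3.58, 3.51 and 3.43 with Yap on. The log2 of the list's summed intensity lay between 8.46 and 8.65 against 6.54 and 6.60. Of the 5 lymphocyte and neutrophil markers 3 were at or below the array median on all Yap-off arrays and 4 on all Yap-on arrays. Of the 10 macrophage markers these counts were 4 and 8. The macrophage list median lay between 4.12 and 4.43 in Yap-off and between 3.16 and 3.48 in Yap-on libraries, and the log2 of its summed intensity between 7.55 and 8.09 against 7.57 and 7.71. In whole organoids, fewer cells of a type and less RNA per cell cannot be told apart. The part of these changes in the transporter results was not tested.

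Of the 5 basolateral exporters 3 rose, 1 fell and 1 did not pass, where 19.1% of all genes rose and 12% fell. Abcc5, an exporter of cyclic nucleotides, was at 5.84, 5.78 and 5.88 in Yap-off and at 7.48, 7.54 and 7.23 in Yap-on libraries. It rose by 1.58 (SE 0.11, adjusted p = 0.00010), or 3-fold. Abcc1, which exports leukotriene C4 and glutathione conjugates, was at 5.77, 5.79 and 5.86 against 7.38, 7.27 and 7.12, and it rose by 1.45 (SE 0.10, adjusted p = 0.00011). The SD between replicates was 0.16 or less for both genes in either group, far under the difference.

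Abcc3 was abundant on every array and changed little. It was at 9.65, 9.55 and 9.51 with Yap off and at 10.02, 10.03 and 9.83 with Yap on, a difference of 0.39 (SE 0.10, adjusted p = 0.028). The call was lost on all 12 arrays (adjusted p = 0.40), on the 10 arrays (0.14), with the replicate number as a block (0.052), and when any of Yap-off 2, Yap-off 3, Yap-on 1 or Yap-on 2 was left out (0.061 to 0.11). Abcc4, an exporter of bile salts and cyclic nucleotides, was at 8.74, 7.85 and 7.86 against 8.19, 7.89 and 7.65. Its groups overlapped (difference -0.24, 95% interval -0.88 to 0.40, adjusted p = 0.50). Abcc6, a liver transporter needed for ATP release, was the basolateral gene that fell, from 4.72, 4.98 and 4.95 to 3.56, 3.49 and 3.66 (difference -1.31, SE 0.11, adjusted p = 0.00023). The Yap-on values of Abcc6 were below their array medians.

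The sterol and phospholipid transporters parted as well. Abca1 was at 7.79, 7.55 and 8.12 in Yap-off and at 3.67, 3.86 and 3.80 in Yap-on libraries. The Yap-on libraries were below their array medians, and Abca1 fell by 4.04 (SE 0.16, adjusted p = 5e-06). Abcg1 was at 4.6, 4.56 and 4.27 against 5.27, 5.62 and 5.05, and it rose by 0.84 (SE 0.17, adjusted p = 0.011). The call for Abcg1 was lost on all 12 arrays (adjusted p = 0.75) and on the 10 arrays (adjusted p = 0.052). Abca2, a sterol transporter of the endolysosome, fell by 0.43 (SE 0.13, adjusted p = 0.041), from 6.22, 6.09 and 6.45 to 5.72, 5.95 and 5.78. Abcg4, best known from brain, was near its array medians, at 3.90, 4.23 and 4.30 against 3.71, 3.68 and 3.75, and fell by 0.43 (SE 0.13, adjusted p = 0.042). These small falls of Abca2 and Abcg4 were lost in 9 of the 16 alternative fits each. Abca7, a phospholipid transporter, was at 5.31, 5.25 and 5.09 against 5.51, 5.41 and 5.46, without overlap, and its difference of 0.24 (95% interval 0.01 to 0.48) did not pass (adjusted p = 0.10).

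**Figure D3:**
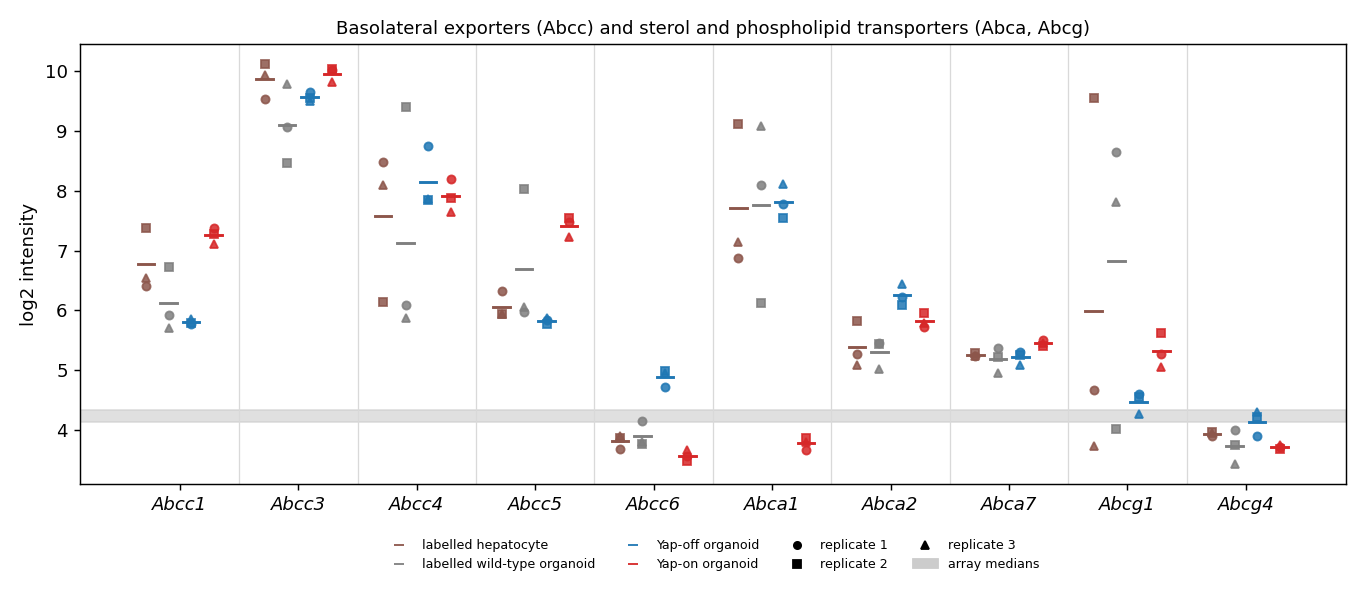
Log2 intensity of 5 basolateral exporters and 5 sterol and phospholipid transporters in all 12 libraries, with bars for group means and a grey band for array medians. Abcc1 and Abcc5 separate the Yap-on from the Yap-off libraries upward and Abca1 downward, and Abcg1 is highest, from 7.81 to 9.55, in labelled hepatocyte 2, labelled wild-type organoid 1 and labelled wild-type organoid 3.

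Of the other 30 ABC genes 9 passed, 4 higher and 5 lower with Yap on, a share near the 31.2% of all genes. Abca6 belongs to a row of 5 Abca genes on chromosome 11, and it stood at 7.92, 7.93 and 8.65 in Yap-off against 3.11, 3.01 and 3.03 in Yap-on libraries. It fell by 5.12 (SE 0.20, adjusted p = 5.7e-06), and again the Yap-on libraries were below their array medians. Abca8b, at the far end of that row, fell by 2.04 (SE 0.28, adjusted p = 0.0022), from 4.83, 4.17 and 5.39 to 2.69, 2.81 and 2.79. Abca8a fell by 0.89 (SE 0.27, adjusted p = 0.044), from 3.76, 3.08 and 4.18 to 2.63, 2.85 and 2.87, and lay at or below the array median on all 12 arrays. Its call was lost in 7 of 15 alternative fits, among them all 12 arrays (adjusted p = 0.076) and the omission of any Yap-on library, Yap-off 1 or Yap-off 3 (0.074 to 0.14). Abca14 was as dim and fell by 0.33 (SE 0.10, adjusted p = 0.047), a call lost in 10 of 15 alternative fits, among them renewed quantile normalization (adjusted p = 0.37) and the omission of any library other than Yap-off 2 (0.070 to 0.14). The last members of the row, Abca5 and Abca9, which are named here after their values were seen, did not pass (adjusted p = 0.25 and 0.12). Abca8a and Abca8b are close paralogs, and probes may share their signal.

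Abca3, known for loading lamellar bodies with surfactant lipid in the lung, showed the clearest rise of this rest. It was at 5.97, 6.33 and 6.0 with Yap off and at 7.47, 7.43 and 7.22 with Yap on, and rose by 1.27 (SE 0.14, adjusted p = 0.00068). Abcd4, which works in lysosomal cobalamin transport, rose by 0.86 (SE 0.14, adjusted p = 0.0039), from 5.10, 4.68 and 4.69 to 5.68, 5.74 and 5.62. Among mitochondrial members Abcb8 rose by 0.82 (SE 0.19, adjusted p = 0.019), from 5.08, 5.12 and 5.55 to 6.21, 6.26 and 5.72, while Abcb6 and Abcb10 did not pass. Abcf2, an ABC protein without membrane domains, rose by 0.78 (SE 0.12, adjusted p = 0.0036), and Abce1, Abcf1 and Abcf3, of the same kind, did not pass. Abcd2, a peroxisomal importer of very long-chain fatty acids, fell by 1.26 (SE 0.14, adjusted p = 0.00078), from 3.84, 4.04 and 4.32 to 2.83, 2.72 and 2.87. On all 12 arrays Abcb8, Abcf2 and Abcd2 did not pass (adjusted p = 0.068, 0.13 and 0.35). The call for Abcb8 was also lost with renewed quantile normalization (adjusted p = 0.098), with the replicate number as a block (0.057) and when Yap-off 2, Yap-on 1 or Yap-on 2 was left out (0.055 to 0.078).

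Over all 12 libraries 15 ABC genes were above the array median on every array, 12 at or below it on every array and 21 on some. Of all genes 37.1% were at or below it on every array, against 25.0% of the ABC genes. The genes never above it were Abca4, Abca8a, Abca12, Abca13, Abca14, Abca15, Abca16, Abca17, Abcb5, Abcb9, Abcc8 and Abcc12. A low value of a probe set does not by itself show that the RNA was absent.

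The labelled hepatocytes and labelled wild-type organoids carried the transporters in patterns that crossed the titles. Abcc2 was at 8.86, 6.60 and 9.17 in labelled hepatocytes 1, 2 and 3 and at 6.57, 9.23 and 5.16 in labelled wild-type organoids 1, 2 and 3. It was thus highest in labelled hepatocytes 1 and 3 and labelled wild-type organoid 2, and in each of the 6 it was above every Yap-on library. Abcb11 took the opposite order, at 2.97, 4.31 and 3.08 and at 4.86, 2.73 and 3.78. Labelled hepatocytes 1 and 3 had high Abcc2 but the bile salt export pump below their array medians (4.19 and 4.14). In these libraries the hepatocyte list median was 10.10 and 10.25 and the duct list median 8.18 and 7.90. The hepatocyte markers were uneven there, with albumin (Alb) at 12.33 and 12.13, Cyp2e1 at 3.16 and 3.22 and Cyp3a11 at 3.29 and 4.05.

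Abcb1a and Abcb1b took the order of Abcc2 rather than that of Abcb11. Abcb1a was at 7.60, 4.02 and 7.58 and at 3.85, 5.71 and 4.45, and Abcb1b at 7.07, 3.37 and 7.16 and at 3.69, 5.98 and 3.27. Abcg2 had its highest value of all 12 libraries, 7.30, in labelled wild-type organoid 2, against 5.10 to 6.21 in the other 5 of these groups. Abcb4 was at 6.03, 3.98 and 5.54 and at 4.48, 3.48 and 4.15, high in labelled hepatocytes 1 and 3 but not in labelled wild-type organoid 2. Abcg5 and Abcg8 stayed between 3.08 and 4.80 and between 3.25 and 4.35, on both sides of the array medians.

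Among the basolateral genes Abcc4 and Abcc5 spread most over these 6 libraries. Abcc4 was at 8.48, 6.14 and 8.09 and at 6.09, 9.40 and 5.88, and so ran with Abcc2. Abcc5 was at 8.03 in labelled wild-type organoid 2, above all Yap-on libraries, and between 5.94 and 6.32 in the other 5. Abcc1 lay between 5.70 and 7.38, highest in labelled hepatocyte 2. Abcc3 lay between 8.47 and 10.12 in these 6 libraries, with its lowest value in the one labelled wild-type organoid 2, and Abcc6 between 3.69 and 4.15.

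Among these 6 libraries Abcg1 and Abca1 were highest where macrophage markers were. Abcg1 was at 9.55, 8.66 and 7.81 in labelled hepatocyte 2, labelled wild-type organoid 1 and labelled wild-type organoid 3, and between 3.74 and 4.67 in the other 3. Abca1 was at 9.12, 8.10 and 9.09 in the same libraries and between 6.12 and 7.15 in the others. Abcg3 and Abca9, chosen after their values were seen, were at 6.91, 6.05 and 7.64 and at 6.97, 6.92 and 7.67 in those libraries, and between 2.5 and 2.92 and between 2.89 and 2.96 in the other 3. In all 9 remaining libraries Abcg3 and Abca9 were below the array median. The marker lists of other blood and vessel cells were not equally high in the same 3 libraries, where the endothelial list median was 7.65, 9.68 and 8.66, and the lymphocyte and neutrophil list median was 3.99, 9.95 and 9.70. The part of these cells in the transporter values was not tested.

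**Figure D4:**
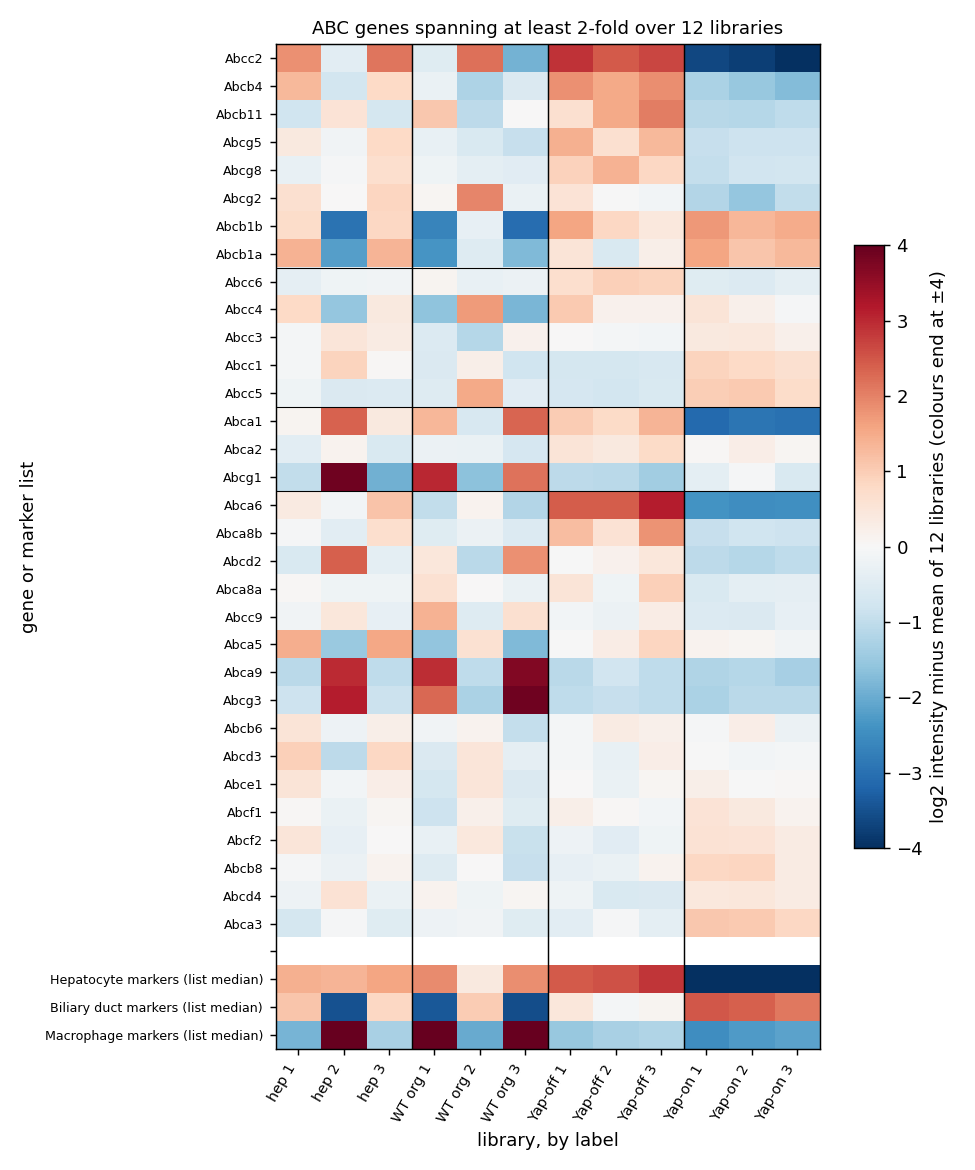
Log2 intensity minus the mean of the 12 libraries for the 32 ABC genes that span at least 2-fold, ordered by function and by the difference between Yap-on and Yap-off organoids, with the medians of 3 marker lists below. Abcg1, Abca9 and Abcg3 are high in the libraries with a high macrophage list median, and Abcc2 and Abca6 are lowest in the Yap-on libraries.

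Comparisons with the labelled control groups asked how organoids with a history of Yap differ from cells without it. They were fitted on all 12 arrays and share control libraries, and each mixes the patterns above. Xist separated every Yap-off library from every labelled wild-type organoid. The effects of the difference that it marks and of a history of Yap cannot be told apart there. On the 10 arrays the same holds for Yap-on organoids against labelled hepatocytes. Against labelled wild-type organoids, 5 of 48 ABC genes passed for the Yap-on organoids, 2 higher and 3 lower, beside 5.47% of all genes (4.02% higher, 1.45% lower). Abca1 fell by 3.99 (SE 0.73, adjusted p = 0.011), Abcc2 by 3.74 and Abca6 by 1.77, and Abca3 and Abcb8 rose by 1.26 and 1.15. On the 10 arrays 24 passed, beside 41% of all genes. For the Yap-off organoids 7 passed, all higher, beside 2.61% of all genes (1.42% higher, 1.19% lower). They were Abca6 (3.34, SE 0.39, adjusted p = 0.0047), Abcb4 (2.43), Abcg5 (1.74), Abca8b (1.62), Abcg8 (1.39), Abcc6 (0.98) and Abca2 (0.95). On the 10 arrays 19 passed, beside 32.3% of all genes.

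Against labelled hepatocytes, 6 ABC genes passed for the Yap-on organoids, 1 higher and 5 lower, beside 6.19% of all genes (4.26% higher, 1.93% lower). Abcc2 fell by 4.96 (SE 0.93, adjusted p = 0.011), Abca1 by 3.94, Abca6 by 2.91, Abcb4 by 1.96 and Abcg5 by 1.2, and Abca3 rose by 1.39. On the 10 arrays 16 passed, beside 21.6% of all genes. For the Yap-off organoids 2 passed, Abca6 (2.21, SE 0.39, adjusted p = 0.026) and Abcc6 (1.06, SE 0.13, adjusted p = 0.0058), both higher, beside 1.9% of all genes (0.878% higher, 1.02% lower). On the 10 arrays 8 passed, beside 14% of all genes. Between labelled wild-type organoids and labelled hepatocytes limma called 0 of the 48, with 4 at an unadjusted p under 0.05, and 0.0502% of all genes. On the 10 arrays 23 passed, beside 30.7% of all genes. The libraries then compared differed in the macrophage list median, at 10.46 and 11.09 in labelled wild-type organoids and at 3.79 and 4.34 in labelled hepatocytes, and its part in these calls was not tested.

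Some genes set a group apart from all 9 libraries of the others. Every Yap-off library exceeded every other library for 6 ABC genes (Abcc2, Abcb4, Abcg8, Abcc6, Abca6 and Abca2), as for 3.48% of all genes, and lay below every other for 1, Abcc5, as for 2.88%. Every Yap-on library lay below every other library for 10 (Abcc2, Abcb4, Abcg8, Abcg2, Abcc6, Abca1, Abca6, Abca8a, Abca8b and Abca9), as for 5.79% of all genes, and above every other for 3 (Abca3, Abca7 and Abcb8), as for 7.58%. Whether these shares differ from those of all genes was not tested.

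Other genes of bile formation were counted on Yap-on against Yap-off organoids, where 12% of all genes fell and 19.1% rose. Of 9 genes of bile acid synthesis and conjugation 7 fell and none rose, among them Slc27a5 (-4.82), Akr1d1 (-4.15), Cyp27a1 (-2.90) and Baat (-2.51), enzymes that build or conjugate bile acids. Of 7 carriers of bile acid uptake and basolateral efflux 5 fell and none rose. Slc10a1, the sodium-dependent bile acid importer, was at 6.96, 8.16 and 7.97 with Yap off and at 4.22, 4.16 and 3.78 with Yap on (difference -3.64, SE 0.31, adjusted p = 0.00025). Slco1a4, Slco1b2 and Slco1a1, organic anion importers, fell by 1.74, 0.88 and 0.76. Slco1b2 and Slco1a1 were dim, between 3.06 and 3.45 and between 2.83 and 3.27 with Yap off, and below the array median in both groups. Slc51a and Slc51b, of the same list, lay below it there as well.

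Among 11 measured partners of the canalicular membrane 6 rose and 1 fell, beside 19.1% and 12% of all genes. Atp8b1, a phosphatidylserine flippase of the canaliculus, was at 5.96, 5.45 and 5.67 with Yap off and at 8.15, 7.98 and 7.55 with Yap on (difference 2.20, SE 0.19, adjusted p = 0.00029). Ezr, a linker of apical membranes to actin, rose by 1.87, and Myo5b and Rab11a, which carry apical vesicles, by 1.39 and 1.11. Slc47a1, a drug and cation extruder named here as the exception, fell by 0.63 (SE 0.095, adjusted p = 0.0030). Rdx (radixin), of the same list and named after its values were seen, had a mean of 8.71 with Yap off and 8.57 with Yap on. Its values in these groups overlapped. In the same comparison 6 of 7 bile duct markers rose. The part of duct cells in the rises on this list was not tested.

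Among 12 nuclear receptors and other factors that act on transporter genes 8 fell and 2 rose, beside 12% and 19.1% of all genes. Nr1h3, the sterol receptor LXR alpha, fell by 2.87 (SE 0.13, adjusted p = 1.1e-05), from 6.73, 6.99 and 6.91 to 3.84, 3.96 and 4.20. Like Abcg1, it was higher, at 8.12 or more, in labelled hepatocyte 2 and labelled wild-type organoids 1 and 3. Ppara, Nr5a2 and Rxra fell by 2.33, 2.08 and 1.90. Nr1h4, the bile acid receptor FXR, and Nr0b2, its target, are added after their values were seen, and they did not pass (differences 0.88 and -0.36, adjusted p = 0.084 and 0.24). Of 3 ABC proteins with symbols outside the family's scheme, Tap1, a peptide transporter of antigen presentation, rose by 1.56 (SE 0.13, adjusted p = 0.00024) and the chloride channel Cftr by 0.58 (SE 0.14, adjusted p = 0.022), while its partner in peptide transport, Tap2, did not pass (-0.03). Cftr lay between 2.22 and 3.27 in all 12 libraries, below every array median.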

How the data were processed

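RNA from 12 libraries was measured on arrays. The authors deposited 1 linear intensity per row and array, made with RMA per the submitters' processing notes, and log2 was taken here. Of 34760 rows 21640 had 1 gene symbol in the platform annotation, 1321 had several and 11799 were not in it. The row with the highest mean stood for each of 19937 genes. Differences were fitted with limma 3.58.1 in R 4.3.3 (lmFit and eBayes, two-sided, Benjamini-Hochberg over all genes, 0.05), Yap-on against Yap-off organoids on their 6 arrays and the others on all 12. Arrays limit the precision by their number. Intervals are 95%. All exporters of the canalicular, basolateral and sterol lists were named, then up to 8 other genes each way that passed without overlap, and 4 per list of other bile genes with the largest differences. Members and lists were chosen with earlier results of these data known. The code was tested on simulated data. Alternatives were another normalization, filter, row choice, spread estimate, a replicate block and left-out libraries. Gene starts and windows are from RefSeq (GRCm38.p6). Figures were drawn with matplotlib 3.10.9.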

Additional observations from a re-analysis of the deposited data

How the results depend on the processing

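For Yap-on against Yap-off organoids, 24 ABC genes passed, and 17 to 23 did when 1 library was left out. With the spread of all 12 arrays 13 passed, and over all genes 2283 in place of 6212. Renewed quantile normalization gave 20, median centring 23, a filter on dim genes 22, an intensity trend 25 and array weights 24. The replicate block also gave 20. Replicate numbers did not pair these libraries (correlations of deviations 0.07, 0.03 and -0.06). Among the named genes' alternatives 373 kept direction and side of the threshold, 55 lost the threshold, 1 passed it and 1 reversed, which was Abcc4 (0.057 without Yap-off 1 and -0.39 without Yap-off 2). Scaling moved the median difference of all genes from -0.08 to 0.00.

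The control comparisons depended on single libraries, and the cause was not tested. For Yap-on against labelled wild-type organoids, 5 genes became 3 with the replicate block, of which 2 were among the 5. On the 10 arrays 24 passed, and on only the 6 arrays compared 2, of which 1 was among the 5. With 1 library left out 1 to 19 passed, 19 without labelled wild-type organoid 2 and 1 without Yap-on 1. For Yap-off against labelled wild-type organoids, 7 became 4 with the block, 19 on the 10 arrays, 0 on the 6 arrays (limma) and 2 to 14 with 1 library left out, 14 without labelled wild-type organoid 2. For Yap-on against labelled hepatocytes, 6 became 16 on the 10 arrays and 4 to 7 with 1 library left out. For Yap-off against labelled hepatocytes, 2 became 1 with the block, 8 on the 10 arrays, 1 on the 6 arrays and 1 to 3 with 1 library left out. Between the labelled control groups, 0 became 23 on the 10 arrays and 0 to 3 with 1 library left out, 3 without labelled hepatocyte 2. Signal over background was not used here, so how far low values lie above it is not known.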
